A study of Mus musculus with 743 samples.

Results

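Akt1, Akt2, Mtor, Rptor, Tsc1, Tsc2, Rheb, Dlg1 and Ddit4 encode kinases of the Akt and mTOR pathway, the adaptor of the mTOR complex, its switch and its brakes. The 9 genes were taken by name from a count table of 25700 genes, of which 15940 had a read in the cells used here. The cells were single Schwann cells (SCs), the glia of peripheral nerves, isolated from sciatic nerves of newborn mice (postnatal day 1, P1), when some SCs still divide and others have begun to myelinate an axon.

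All wells form 1 group. The mice were C57bl/6J of the genotype P0Cre : Rosa26-loxP-stop-loxP-eYFP (ReYFP Tg/+) : βAct-DsRed Tg/+, so that a Cre transgene active in the SC lineage switched on eYFP, and every cell also carried the DsRed transgene. Cells positive for eYFP were sorted 1 per well into 2 plates for Smart-seq2 libraries, which cover whole transcripts and carry no molecular identifiers. Cells from male and female mice were pooled separately for each plate. The plate is therefore the replicate (n = 2) and the cell is not.

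Of 743 wells, 621 had at least 1500 detected genes and were kept, 287 on plate 1 and 334 on plate 2. Cells with at least 50 CPM (reads of a gene per 1000000 counted reads) of Mki67 plus Top2a, both genes of dividing cells, were called cycling (53 and 57 cells on plates 1 and 2). The remaining cells with at least 50 CPM of Ncmap, a myelin gene of SCs, were called promyelinating (59 and 60 cells), and all others "other" (175 and 217 cells). The cells nearest to the thresholds had 44.2 and 63.4 CPM of Mki67 plus Top2a and 43.3 and 50.3 CPM of Ncmap. A single cell that passed both rules was counted as cycling. Median reads per cell ranged from 701288 to 950150 over the 6 sets of cells, while the median number of detected genes was 3690 and 3550 in promyelinating, 3425 and 3477 in cycling and 2775 and 2819 in other cells. The cells carried the defining SC transcripts in every class, and 82.4% of them had a read of Sox10. Its level was 150 to 228 CPM per class and plate, and that of Erbb3 was 228 to 382 CPM. S100b, at 251 and 288 CPM in promyelinating cells and 34.2 to 94.0 CPM in the others, was called higher in promyelinating than in other and in cycling cells (edgeR adjusted p = 0.0448 and 0.00379). Of the defining markers of other nerve cells, Cdh5 and Kdr (endothelial), Pdgfra (fibroblast-like), Ptprc and Tyrobp (immune) and Acta2 and Rgs5 (mural) had no read. The other markers of the same lists were read in some cells. Cspg4 and Pdgfrb (mural) had a read in 9.98% and 8.53% of cells, Csf1r (immune) in 9.34% and Dcn (fibroblast-like) in 4.03%. Cldn5, Pecam1 and Emcn (endothelial), Cd68 (immune) and Lum (fibroblast-like) had a read in 0.161% to 2.58%. The summed levels of these lists ranged from 0 to 2.91 CPM (endothelial), 0 to 36.7 CPM (fibroblast-like), 2.77 to 20.7 CPM (immune) and 24.8 to 56.8 CPM (mural). Pdgfrb, of the last list, was called lower in cycling cells, where it had no read.

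Growth factors and axonal signals activate PI3K at the membrane, and its lipid product recruits and activates the Akt kinases. Akt phosphorylates and inhibits the TSC1-TSC2 complex, which otherwise keeps the small GTPase Rheb inactive, and active Rheb switches on mTORC1, the complex of mTOR with raptor (Rptor). In SCs this axis is known to act in a stage-dependent manner: high activity before myelination holds differentiation back, and activity at and after the onset drives growth of the myelin sheath. Dlg1, a scaffold protein, and Ddit4 (REDD1), a stress-induced activator of the TSC complex, are known as brakes on Akt and mTORC1 in myelinating SCs. Transcript counts do not measure the activity of these proteins.

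The 9 genes differed widely in level. Per kilobase of exon, Rheb led with 31.3 ± 3.33 CPM (mean ± SD over the plates, n = 2, all cells). Akt1 followed at 7.31 ± 0.591, Tsc2 at 4.90 ± 1.79 and Akt2 at 4.82 ± 1.87 CPM per kilobase. Mtor had 2.96 ± 0.611, Tsc1 2.79 ± 0.712 and Rptor 2.38 ± 0.309 CPM per kilobase. Dlg1 (1.32 ± 0.529) and Ddit4 (0.363 ± 0.239) were lowest on this scale. The plate values of the neighbours Tsc2 and Akt2, Mtor and Tsc1, and Tsc1 and Rptor overlapped, and those of the other neighbours did not. Among 15911 genes with reads and a known length, Rheb stood at percentile 88.0, Akt1 at 70.0, Rptor at 49.2 and Ddit4 at 24.4.

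Except for Rheb, each gene was read in a minority of cells. Over both plates, 73.6% of cells had a read of Rheb, 30.0% of Akt1, 28.0% of Akt2, 27.2% of Tsc2, 21.9% of Dlg1, 16.6% of Tsc1, 14.98% of Mtor, 12.6% of Ddit4 and 10.9% of Rptor. The median cell held a read of 2 of the 9 genes on either plate, and 24 and 15 cells held none. With so few cells behind a sum, a single cell can supply much of it, and this share is given where it matters. In sums of cells, fewer cells with a transcript and less RNA per cell cannot be told apart by level alone.

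**Figure D1:**
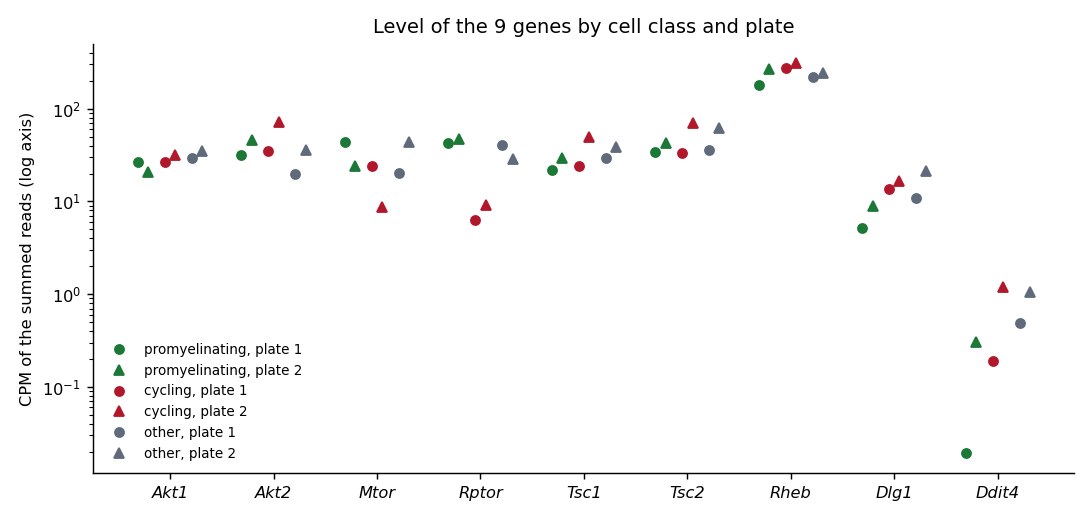
CPM (log axis) of the 9 genes in reads summed over promyelinating, cycling and other cells of plate 1 (circles) and plate 2 (triangles). Rheb is at 182 to 307 CPM and Ddit4 at 0.0192 to 1.20 CPM in all 6 sums, and Rptor is lowest in the 2 cycling sums.

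For each pair of classes the question was whether the 9 transcripts differ between cells that divide, cells that have turned on a myelin gene, and the rest. Reads of each class were added up within each plate, and these 6 sums were tested with edgeR over 13289 genes, which left out Mki67, Top2a and Ncmap because the rule used them. Between promyelinating and other cells, 0 of the 9 genes passed an adjusted p of 0.05 in edgeR, 0 had an unadjusted p under 0.05, and DESeq2 and limma called 0. In this comparison, 0.489% of all genes were called higher and 1.29% lower. Between cycling and other cells edgeR also called 0 of the 9, with 1 gene, Rptor, at an unadjusted p under 0.05, against a background of 0.873% higher and 0.105% lower. Here limma called 0 of the 9, and DESeq2 called Rptor lower (adjusted p = 0.00723), against its own background of 3.37% higher and 2.6% lower. Between promyelinating and cycling cells edgeR called Rptor higher and no other of the 9, against a background of 2.11% higher and 3.82% lower. The median log2 fold change of the 9 genes was -0.24, 0.03 and -0.47 in these 3 comparisons, beside -0.07, -0.07 and -0.02 over all genes tested. The 3 comparisons share their sums in pairs and are not independent of each other.

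**Figure D2:**
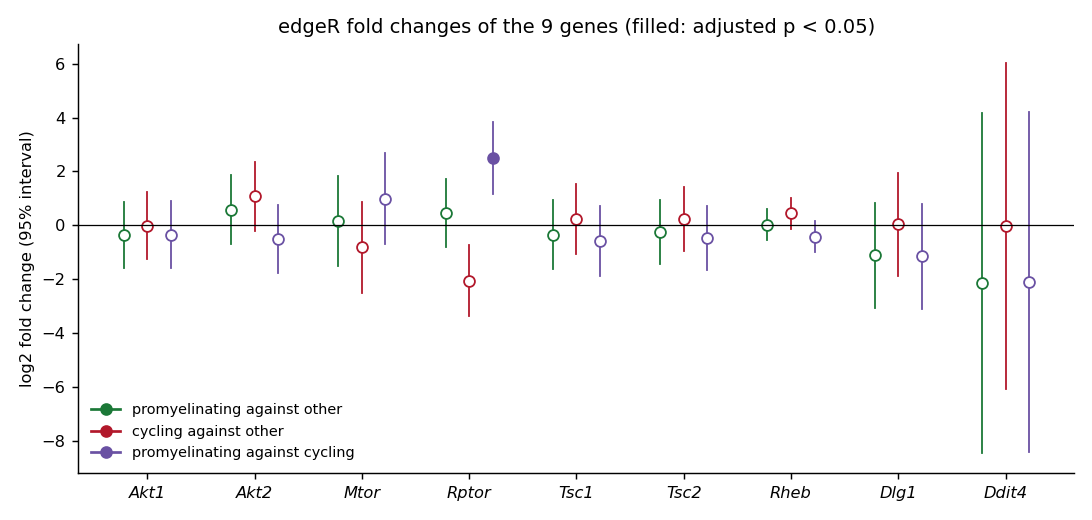
Log2 fold changes of the 9 genes in 3 comparisons (points) with 95% intervals from edgeR (lines). Filled points have an adjusted p under 0.05, which holds for Rptor between promyelinating and cycling cells (2.50), and the intervals of Ddit4 are the widest.

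Akt1 and Akt2 encode the serine-threonine kinases between PI3K and the TSC complex. Akt1 lies on chromosome 12 (GRCm38, 112653821 to 112674884, minus strand). It had 26.7 and 20.7 CPM on plates 1 and 2 in promyelinating, 26.9 and 31.4 CPM in cycling and 29.2 and 35.0 CPM in other cells. The 3 classes lay close together, with the promyelinating sums lowest on both plates. Against other cells the log2 fold change in promyelinating cells was -0.36 (95% interval -1.59 to 0.87, edgeR adjusted p = 0.920) and against cycling cells -0.35 (-1.58 to 0.88, adjusted p = 0.781). Akt1 was read in 32.2% and 33.3% of promyelinating, 41.5% and 35.1% of cycling and 27.4% and 26.3% of other cells.

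Akt2 lies on chromosome 7 (27591552 to 27640826, plus strand). Its level was 31.7 and 46.3 CPM in promyelinating, 35.0 and 72.5 CPM in cycling and 19.8 and 35.6 CPM in other cells. Within each plate the other cells were lowest and the cycling cells highest, while the classes overlapped across plates. The log2 fold change against other cells was 0.58 (-0.70 to 1.85, edgeR adjusted p = 0.825) in promyelinating and 1.08 (-0.20 to 2.36, adjusted p = 0.568) in cycling cells. Akt2 was also read in more cells of these 2 classes. A read was present in 35.6% and 41.7% of promyelinating cells, 35.8% and 50.9% of cycling cells and 17.1% and 23.04% of other cells. The other cells lay below both classes, which overlapped each other. More genes were detected per promyelinating and cycling cell than per other cell, and thinning each cell to 50000 reads gave 23.7% and 36.2%, 26.9% and 40.4%, and 10.3% and 21.4%. The thinned share in promyelinating cells was 2.31 and 1.69 times that in other cells on plates 1 and 2, where the median over 8561 and 8566 genes detected in 5 to 80% of cells was 1.35 and 1.27. The corresponding ratio for cycling cells was 2.62 and 1.89, beside a median of 1.23 and 1.19. These shares carry no test, since only the plates are replicates.

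**Figure D3:**
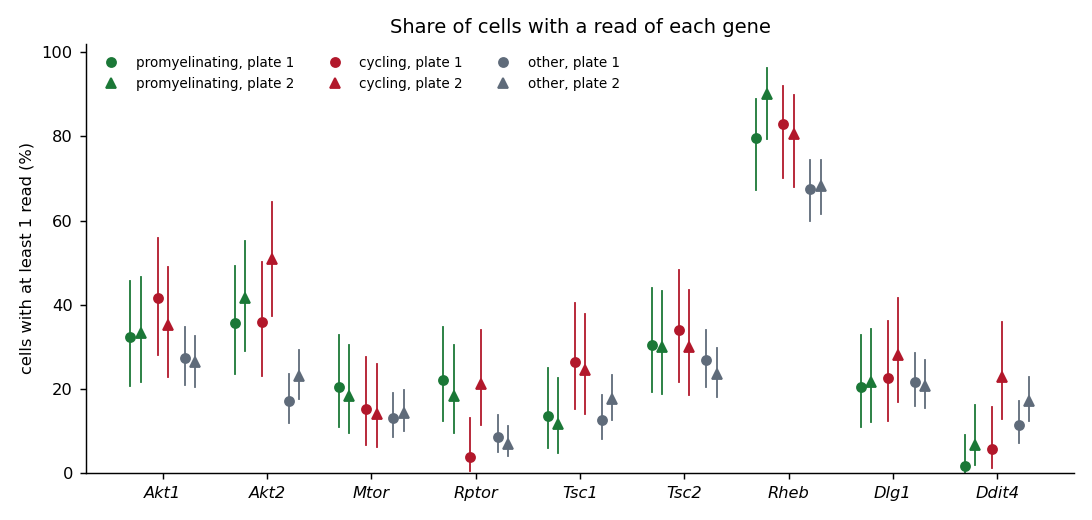
Share of cells (%) with at least 1 read of each gene by class and plate, with exact 95% binomial intervals (lines), which cover counting error only. For Akt2 the promyelinating and cycling shares (35.6% to 50.9%) lie above those of other cells (17.1% and 23.04%), and the same holds for Rheb. The shares are not thinned. After thinning, the ratios of Rheb to other cells were near those of the median gene, but a gene read in most cells cannot reach a large ratio.

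Mtor encodes the kinase of both mTOR complexes, and Rptor the subunit that defines mTORC1 and presents its substrates. Mtor (chromosome 4, 148448611 to 148557683, plus strand) had 43.6 and 23.9 CPM in promyelinating, 23.95 and 8.63 CPM in cycling and 20.1 and 44.1 CPM in other cells. The plates went opposite ways between promyelinating and other cells, with ratios of 2.17 and 0.54. Against cycling cells both plates had more Mtor in promyelinating cells, 1.82 and 2.77 times, but the log2 fold change of 0.98 had an interval of -0.71 to 2.68 (edgeR adjusted p = 0.496). Mtor was read in 20.3% and 18.3% of promyelinating, 15.1% and 14.04% of cycling and 13.1% and 14.3% of other cells.

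Rptor (chromosome 11, 119602905 to 119899576, plus strand) was the 1 gene of the 9 with a called difference. Its level was 43.1 and 47.4 CPM in promyelinating, 6.28 and 9.21 CPM in cycling and 41.0 and 28.9 CPM in other cells. The cycling sums were below all 4 others, and promyelinating exceeded cycling cells 6.86 and 5.15 times on the 2 plates. The log2 fold change between these classes was 2.50 (SE 0.580, interval 1.17 to 3.83, edgeR adjusted p = 0.0431). With the plate as a block it was 2.50 with an adjusted p of 0.0565, and the call was also lost when any 1 of the 6 sums was left out (adjusted p 0.0642 to 0.115). Between cycling and other cells the log2 fold change was -2.05 (SE 0.571, edgeR adjusted p = 0.223). Between promyelinating and other cells it was 0.45 (-0.81 to 1.70, adjusted p = 0.892).

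The difference rested on few cells. On plate 1, 2 of 53 cycling cells had a read of Rptor, and 1 of them held 94.0% of the 298 reads. On plate 2, 12 of 57 cycling cells (21.1%) had a read, a share like that of promyelinating cells (22.03% and 18.3%), but the median of those 12 cells was 17.99 CPM, where it was 203 and 98.6 CPM in promyelinating cells with a read. In other cells 8.57% and 6.91% had a read, with a median of 117 and 221 CPM and a highest cell of 2745 CPM. A single cell supplied 53.2% of the promyelinating reads on plate 1. Thinned to equal depth, the shares of promyelinating and other cells with a read were 18.6% and 15.5% against 5.71% and 6.05%, or 3.26 and 2.57 times, beside the median gene at 1.35 and 1.27. When the cell with most reads of each gene was left out, the log2 fold change against cycling cells was 2.89 and the adjusted p 0.183. An antisense gene, Rptoros, overlaps an exon of Rptor on the opposite strand, and since strand use in counting is not given, their reads cannot be told apart there.

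Tsc1 and Tsc2 encode the subunits of the complex that inactivates Rheb. Tsc1 (chromosome 2, 28641228 to 28691167, plus strand) had 21.6 and 29.5 CPM in promyelinating, 24.3 and 49.9 CPM in cycling and 29.7 and 39.0 CPM in other cells. Plate 2 was higher than plate 1 in each class, and within each plate promyelinating cells were lowest. The log2 fold change against other cells was -0.35 (-1.64 to 0.95, edgeR adjusted p = 0.933). A read of Tsc1 was present in 13.6% and 11.7% of promyelinating and 26.4% and 24.6% of cycling cells, and in 12.6% and 17.5% of other cells. The cycling shares were the highest of each plate, also after thinning (17.3% and 17.5% against 6.90% to 13.6%). In the cycling cells of plate 2, a single cell held 62.5% of the Tsc1 reads.

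Tsc2 (chromosome 17, 24595816 to 24632630, minus strand) had 34.4 and 42.9 CPM in promyelinating, 33.6 and 70.2 CPM in cycling and 35.5 and 61.4 CPM in other cells. On plate 1 the classes were within 2 CPM of each other, and on plate 2 promyelinating cells were lowest. Against other cells the log2 fold change was -0.24 (-1.43 to 0.94, edgeR adjusted p = 0.952). Tsc2 was read in 30.5% and 30.0% of promyelinating, 34.0% and 29.8% of cycling and 26.9% and 23.5% of other cells.

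Exons of Tsc2 overlap those of Pkd1 on the opposite strand over 693 bases, so reads there cannot be assigned to either gene without strand. Pkd1 was the gene most like Tsc2 across cells, with a Spearman rho of 0.466 and 0.444 over 286 and 330 cells thinned to equal depth, among 8530 genes. It had a read in 69.8% of the 169 cells with a read of Tsc2 and in 5.75% of the cells without. No other gene reached a rho of 0.3 on both plates with any of the genes compared, and Ddit4 was too low to be compared. The 8 genes other than Ddit4 were hardly related among themselves, with rho between -0.101 and 0.186 over their 28 pairs and both plates. These coefficients describe cells of the same libraries and carry no p.

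Rheb encodes the GTPase that switches on mTORC1. It was the best measured of the 9 (chromosome 5, 24802823 to 24842624, minus strand), with 182 and 268 CPM in promyelinating, 275 and 307 CPM in cycling and 222 and 245 CPM in other cells. Cycling cells were highest on both plates, and promyelinating and other cells overlapped. The log2 fold change between promyelinating and other cells was 0.02 with an interval of -0.54 to 0.59 (edgeR adjusted p = 0.994), the narrowest of the 9. Between cycling and other cells it was 0.45 (-0.12 to 1.02, adjusted p = 0.593). A read was present in 79.7% and 90.0% of promyelinating, 83.0% and 80.7% of cycling and 67.4% and 68.2% of other cells. The thinned share was 1.20 and 1.35 times that of other cells in promyelinating cells, beside 1.35 and 1.27 for the median gene. In cycling cells it was 1.24 and 1.19 times, beside 1.23 and 1.19 for the median gene.

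Dlg1 encodes a membrane-associated scaffold, and Ddit4 a stress-induced activator of the TSC complex. Dlg1 (chromosome 16, 31663443 to 31875129, plus strand) had 5.20 and 8.89 CPM in promyelinating, 13.5 and 16.6 CPM in cycling and 10.9 and 21.5 CPM in other cells. Both promyelinating sums lay below the 4 others, at 0.48 and 0.41 times the other cells of the same plate. The difference did not pass the test (log2 fold change -1.11, interval -3.06 to 0.83, edgeR adjusted p = 0.740). Without thinning, a read was present in 20.3% and 21.7% of promyelinating, 22.6% and 28.1% of cycling and 21.7% and 20.7% of other cells. Thinned to equal depth, the shares were 15.3% and 12.1%, 13.5% and 26.3%, and 10.3% and 14.9% in the same order. The thinned promyelinating share was thus the highest on plate 1 and the lowest on plate 2. These shares were not tested. A single cell held 52.8% and 54.6% of the promyelinating reads on plates 1 and 2.

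Ddit4 (chromosome 10, 59949669 to 59951834, minus strand) was close to the limit of detection. It had 88 reads on plate 1 and 252 on plate 2 in total, spread over 78 of 621 cells. Promyelinating cells held 1 and 16 of these reads (0.0192 and 0.307 CPM), cycling cells 9 and 54 (0.190 and 1.20 CPM), and other cells 78 and 182 (0.488 and 1.05 CPM). The promyelinating sum was lowest on each plate, with a read in 1 of 59 and 4 of 60 cells, against 20 of 175 and 37 of 217 other cells. The fitted interval against other cells ran from -8.47 to 4.17 log2 units (edgeR adjusted p = 0.898). The highest single cell had 44.1 CPM, and 2.69% of cells had at least 5 reads.

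The rest of the pathway was described by lists of 16 PI3K genes and phosphatases, 6 subunits of the mTOR complexes, 11 partners of the TSC complex and stress brakes, 17 amino acid sensors, 14 effectors of mTORC1, 9 substrates of Akt and 9 relatives and partners of Dlg1 that were tested. Between promyelinating and other cells, 1 of these genes was called higher (Cdkn1a) and 2 lower (Deptor and Castor1). Between cycling and other cells 0 were called by edgeR. Between promyelinating and cycling cells 2 were called higher (Cdkn1a and Cdkn1b) and 2 lower (Deptor and Castor1). Over all genes tested, the shares called higher and lower were 0.489% and 1.29% in the first comparison. They were 0.873% and 0.105% between cycling and other cells, and 2.11% and 3.82% between promyelinating and cycling cells. Whether the lists as a whole differ from all genes was not tested.

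**Figure D4:**
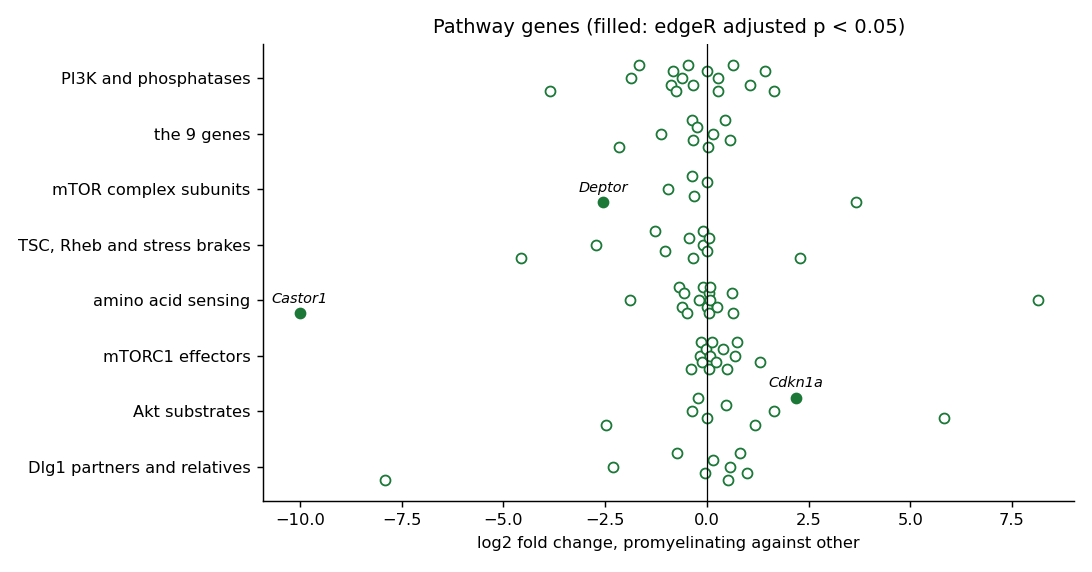
Log2 fold changes between promyelinating and other cells for the 9 genes and the tested genes of 7 lists, 1 point a gene. Filled points have an edgeR adjusted p under 0.05 (Deptor -2.55, Cdkn1a 2.20 and Castor1, whose fitted value rests on 0 and 1 reads in promyelinating cells).

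Deptor encodes a subunit of mTORC1 and mTORC2 that inhibits mTOR. The gene lies on chromosome 15 (55112317 to 55259271, plus strand), where an exon overlaps Gm9920 on the opposite strand. Promyelinating cells had 75.01 and 124 CPM, cycling cells 307 and 453 CPM and other cells 487 and 745 CPM. Both promyelinating sums lay below all others, and Deptor fell in promyelinating cells by a log2 fold change of -2.55 against other cells (SE 0.333, interval -3.31 to -1.79, edgeR adjusted p = 0.00716). Against cycling cells the log2 fold change was -1.98 (SE 0.326, adjusted p = 0.00966). Between cycling and other cells it was -0.57 (adjusted p = 0.593). Both calls held under each of the 19 alternatives, with an adjusted p of at most 0.0249 and 0.0415. Reads of Deptor were present in 45.8% and 51.7% of promyelinating, 77.4% and 82.5% of cycling and 73.1% and 82.9% of other cells, and the promyelinating shares lay below the others. The median of the cells with a read was 190 and 135 CPM in promyelinating against 538 and 653 CPM in other cells. No single cell held more than 21.9% of the reads of a sum.

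The other 5 tested genes of this list did not pass. They were Mlst8, which is shared by both complexes, Akt1s1 (PRAS40), an inhibitor of mTORC1 under control of Akt, and Rictor, Mapkap1 and Prr5 of mTORC2. Akt1s1 had 24.9 and 32.3 CPM in promyelinating and 22.3 and 37.9 CPM in other cells, and Rictor had 14.4 and 3.55 against 26.9 and 9.89 CPM. The list median was -0.34 between promyelinating and other cells, beside -0.07 over all genes.

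**Figure D5:**
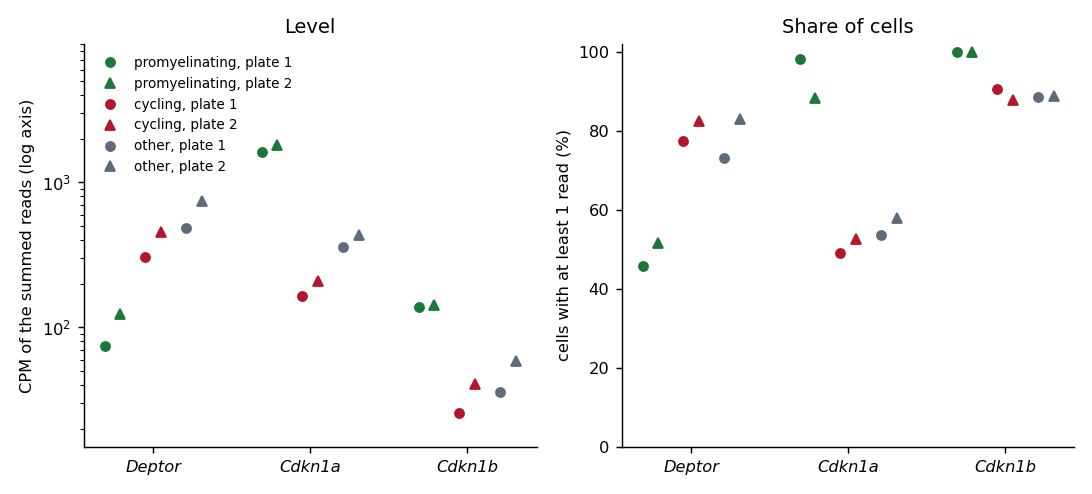
CPM of the summed reads (log axis, left) and share of cells with a read (%, right) of Deptor, Cdkn1a and Cdkn1b by class and plate. Deptor is at 75.01 and 124 CPM in promyelinating sums and at 307 to 745 CPM in the others, while Cdkn1a is highest in the promyelinating sums (1622 and 1813 CPM).

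In the list of PI3K genes and phosphatases edgeR called no gene in any comparison, while DESeq2 did make a call between promyelinating and other cells, where it called 2.59% of all genes with an adjusted p higher and 5.16% lower. The list median between promyelinating and other cells was -0.41, beside -0.07 over all genes.

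Castor1, which holds back mTORC1 when arginine is low, was read in 4.51% of cells. It had 0 and 1 reads in promyelinating cells, 402 and 565 in cycling and 2944 and 881 in other cells (18.4 and 5.10 CPM). It was called lower in promyelinating than in other cells (edgeR adjusted p = 0.0486) and than in cycling cells (0.0238). The first call was lost under 14 of 19 alternatives (adjusted p up to 0.278, without the other sum of plate 1), among them the plate as a block (adjusted p = 0.0812). The second was lost without the promyelinating or the other sum of plate 1 (0.0675 and 0.0638). Cells with a read were few, 8 of 175 and 6 of 217 among other cells. The other 16 tested amino acid sensors did not pass, and the list median was 0.01.

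Among substrates of Akt, the 2 genes that were called encode the cell cycle inhibitors p21 (Cdkn1a) and p27 (Cdkn1b). Cdkn1a had 1622 and 1813 CPM in promyelinating, 165 and 210 CPM in cycling and 361 and 431 CPM in other cells. It rose by 2.20 log2 units against other cells (SE 0.194, edgeR adjusted p = 9.86e-04) and by 3.15 against cycling cells (SE 0.201, adjusted p = 1.07e-04), under all 19 alternatives. Cdkn1b had 137 and 142 CPM in promyelinating, 25.9 and 40.7 CPM in cycling and 36.1 and 58.2 CPM in other cells. It was called against cycling cells (log2 fold change 2.02, SE 0.412, adjusted p = 0.0257), a call lost without either promyelinating sum or without the cycling sum of plate 1 (adjusted p 0.0767 to 0.0798), and not against other cells (1.65, adjusted p = 0.112). These genes have many regulators beside Akt. The kinase gene Gsk3b, another substrate, had 300.5 and 535 CPM in promyelinating and 331 and 549 CPM in other cells (log2 fold change 0.01).

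The remaining lists held no gene called by the main edgeR fit in any of the 3 comparisons. Among effectors of mTORC1, the ribosomal protein gene Rps6 had the highest mean CPM, with 952 and 958 CPM in promyelinating, 732 and 614 CPM in cycling and 806 and 725 CPM in other cells (log2 fold change against other cells 0.40, edgeR adjusted p = 0.481). Both promyelinating sums exceeded the 4 others without passing the test. Prkag1, a subunit of the energy sensor AMPK, led the list of TSC partners and brakes by CPM, with 77.9 and 116 CPM in promyelinating and 130 and 145 CPM in other cells (log2 fold change -0.43, adjusted p = 0.825). In the same list, Ddit4l, a relative of Ddit4 named after its values were seen, had 29.9 and 32.4 CPM in other, 67.5 and 35.8 CPM in cycling and 2.49 and 0 CPM in promyelinating cells, which did not pass (adjusted p = 0.322). Between promyelinating and other cells, Ddit4l was called under 1 of 19 alternatives. Mtmr2, a phosphoinositide phosphatase known to interact with Dlg1, led the list of Dlg1 partners with 212 and 256 CPM in promyelinating, 121 and 122 CPM in cycling and 162 and 171 CPM in other cells. Its promyelinating sums exceeded all others, and its log2 fold change of 0.57 against other cells had an adjusted p of 0.431. The list medians between promyelinating and other cells were 0.10 for effectors, -0.34 for TSC partners and brakes and 0.15 for Dlg1 partners.

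Promyelinating cells also differed in some of the genes that respond to tissue dissociation. Summed over Fos, Fosb, Junb, Egr1, Atf3, Ier2, Hspa1a and Hspa1b, the level was 2205 and 2418 CPM in promyelinating, 4726 and 7160 CPM in cycling and 5842 and 6380 CPM in other cells. Of these 8 genes, 4 were called lower against other cells and 5 against cycling cells, beside 1.29% and 3.82% of all genes. The list median was -1.67 and -1.60. Atf3 had 0 and 1.10 CPM in promyelinating and 328 and 344 CPM in other cells, and Ier2 had 13.1 and 44.9 against 253 and 371 CPM. Egr1 had 174 and 231 CPM in promyelinating and 590 and 791 CPM in other cells, and Fosb had 9.76 and 13.4 CPM against 46.6 and 104.7 CPM in cycling cells. Fos, the fourth gene called against other cells, had 1871 and 1961 against 4386 and 4561 CPM. Single calls against other cells were lost under an alternative: Atf3 when genes of low count were kept (edgeR adjusted p = 0.257) and without any 1 of the cycling or other sums (0.0543 to 0.496), Ier2 without the other sum of plate 2 (0.0514) and Egr1 without that sum or the promyelinating sum of plate 1 (0.0509 and 0.0746). Fosb lost its call against cycling cells without the promyelinating sum of plate 1 or the cycling sum of plate 2 (0.0805 and 0.0641). Atf3 lost this call when genes of low count were kept (0.160), without the cycling sum of plate 2 (0.0734) and without either sum of other cells (0.216 and 0.138), whereas Ier2 was called against cycling cells under all 19 alternatives. Of 8 tested genes of the integrated stress and hypoxia response, 0 were called against other cells. Bnip3, a mitophagy receptor, was called higher in promyelinating (33.1 and 51.8 CPM) than in cycling cells (3.10 and 4.04 CPM; log2 fold change 3.52, edgeR adjusted p = 0.0245), a call lost without the promyelinating sum of plate 2 or either cycling sum (adjusted p 0.0528 to 0.0788).

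The part of these genes in the differences of Deptor and Cdkn1a was not tested. When cells of at least 50 CPM of Atf3, 1 of the 8 genes, were left out, a restriction chosen after the data were seen, 59 of 59 and 59 of 60 promyelinating cells and 126 of 175 and 150 of 217 other cells remained. Promyelinating cells then had 75.01 and 125 CPM of Deptor and other cells 493 and 695 CPM. Cdkn1a had 1622 and 1816 CPM against 377 and 413 CPM. Among all noncycling cells, those with at least 50 CPM of Atf3 (49 and 68 cells) had a read of Ddit4 in 16.3% and 23.5%, and those below (185 and 209 cells) in 7.03% and 11.96%. The cells below included 59 and 59 promyelinating cells, with a read of Ddit4 in 1.69% and 6.78%. The remaining 126 and 150 other cells had a read in 9.52% and 14%. These shares were neither thinned nor tested.

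Within the promyelinating class, cells were also divided at the plate median of Mbp, which encodes a major myelin protein. The cells above it had a read of Rheb in 93.1% and 100% of 29 and 30 cells, and the cells at or below it in 66.7% and 80% of 30 and 30. These shares were not thinned, and the level of Rheb was 190 and 288 CPM with more Mbp and 176 and 257 CPM with less. Mtor had 48.6 and 43.3 CPM with more Mbp and 40.3 and 12.7 CPM with less. By level, Rheb and Mtor were higher with more Mbp on both plates, and Akt2 and Dlg1 were lower. Dlg1 was read in 27.6% and 16.7% of cells with more Mbp and in 13.3% and 26.7% with less. Tsc2 was alike on plate 1 (34.7 CPM with more Mbp and 34.1 CPM with less) and higher with more Mbp on plate 2 (94.3 and 13.3 CPM). Ddit4 was too low to compare, with 0 and 0.158 CPM with more Mbp and 0.0322 and 0.393 CPM with less. Akt1, Rptor and Tsc1 went opposite ways on the 2 plates. Deptor had 80.6 and 69.1 CPM with more Mbp and 71.2 and 156 CPM with less, so the plates went opposite ways. None of these values was tested.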

How the data were processed

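The authors sequenced sorted SCs of 2 plates and deposited raw read counts per gene and cell. The submitters' processing notes name bcl2fastq, STAR 2.6.1c, featureCounts and GRCm38.p5, whereas the methods of the study name a human assembly. All IDs in the table are mouse IDs. Strand use in counting is not given in the sources used here. Of 25700 IDs, 25587 matched GENCODE M21 for symbols, positions (GRCm38) and exon lengths.

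The 9 genes, the gene lists and the class rule were chosen with earlier results of these data known. Named list genes are up to 3 per direction and comparison with the largest absolute log2 fold change among those with an adjusted p under 0.05, and otherwise the most abundant gene of the list. Some genes of the lists are not reported here, although the list counts and medians include them. Counts of cells with at least 1500 genes were summed per plate and class (45073128 to 172878954 reads) and fitted with edgeR 4.0.16 in R 4.3.3 (TMM, filterByExpr, robust quasi-likelihood, class only). Benjamini-Hochberg adjustment ran over all 13289 genes tested. CPM are reads scaled to 1000000 per sum, and intervals for shares are exact (Clopper-Pearson, 95%) and cover counting error only, since reads without identifiers are not independent molecules. A floor of 3 reads is 0.0174 to 0.0666 CPM per sum. No doublet caller was run on the sorted wells.

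Sums of a plate come from the same mice, so the plate number pairs them. Deviations of the sums from their class means correlated with r of 0.102, 0.151 and 0.207 over 3713 genes for the 3 pairs of classes. The plate as a block was therefore an alternative, beside DESeq2 1.42.0, limma 3.58.1, other scaling, filters, depths, thresholds and left-out sums. The scripts were tested on simulated data.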

Additional observations from a re-analysis of the deposited data

Results flagged for a closer look

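The 122 wells with fewer than 1500 detected genes entered no comparison, and 7 of the 9 genes had more than 3 reads in them, the limit set for the 20955228 reads of these wells. The summed level was 129 CPM for Rheb (11 wells with a read), 71.8 CPM for Tsc1 (3 wells), 37.9 CPM for Akt2 (5 wells), 4.25 CPM for Tsc2 (3 wells), 3.58 CPM for Dlg1 (3 wells), 2.67 CPM for Akt1 (1 well) and 0.62 CPM for Ddit4 (4 wells). Mtor and Rptor had 2 reads and 1 read.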

How the results depend on the processing

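Of 564 recomputed log2 fold changes of the 9 genes, 510 kept their direction and side of the threshold, 11 lost the call (each of Rptor between promyelinating and cycling cells), 1 gained it and 42 changed sign, none of them of a called gene. The count of the 9 genes called between promyelinating and cycling cells was 1 and became 0 with the plate as a block (paired by plate), thinned to 50000 reads (8 genes tested), with cells of at least 2500 genes, with a class threshold of 20 CPM, without the highest cell per gene, and without each of the 6 sums (range 0 to 0). The count between cycling and other cells was 0 and became 1 with DESeq2. The block changed no call of the 9 genes other than that of Rptor. No robust estimation in edgeR, chosen after seeing the data, changed no call of the 9 genes. Rptor between promyelinating and cycling cells was called under 8 of 19 alternatives, with a log2 fold change from 1.88 to 2.89. The cause of these changes was not tested.

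With 1 sum or plate left out, the log2 fold change against other cells in promyelinating cells ranged from -0.89 to 1.11 for Mtor, -0.55 to 0.18 for Tsc2 and -0.29 to 0.27 for Rheb. In cycling against other cells it ranged from -0.16 to 0.10 for Akt1, -2.35 to 0.25 for Mtor, -0.33 to 0.63 for Tsc1, -0.36 to 0.64 for Tsc2, -0.37 to 0.57 for Dlg1 and -1.84 to 0.74 for Ddit4. Between promyelinating and cycling cells it ranged from -0.91 to 0.0868 for Akt2, -0.98 to 0.0058 for Tsc1 and -0.88 to 0.13 for Tsc2. Signs also changed for Mtor in promyelinating against other cells at 2500 genes (-0.13). In cycling against other cells they changed for Akt1 with RLE scaling (0.0348), DESeq2 (0.0348), 1000 genes (0.0099), 2500 genes (0.23), 100 CPM (0.0509) and without the highest cell (0.0691), for Tsc1 (-0.40) and Tsc2 (-0.16) at 2500 genes, for Tsc1 without the highest cell (-0.25), for Dlg1 with limma (-0.0158) and 100 CPM (-0.20), and for Ddit4 with RLE scaling (0.0039), DESeq2 (0.0039), 2500 genes (0.29), 20 CPM (0.0746) and without the highest cell (0.0380).

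The mean share of cells with a read was 30.0% (Akt1), 27.8% (Akt2), 14.98% (Mtor), 10.9% (Rptor), 16.5% (Tsc1), 27.3% (Tsc2), 21.9% (Dlg1), 12.3% (Ddit4) and 73.5% (Rheb). Thinning to 50000 reads gave 24.8%, 21.7%, 11.7%, 8.72%, 11.2%, 21.97%, 14.1%, 3.15% and 70.9% in the same order. A minimum of 5 reads gave 27.2% (Akt1), 12.6% (Mtor), 9.32% (Rptor), 11.8% (Tsc1), 22.3% (Tsc2), 16.3% (Dlg1), 2.69% (Ddit4) and 71.6% (Rheb).

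All genes called numbered 237 in promyelinating against other, 130 in cycling against other and 788 in promyelinating against cycling cells. With no filter these were 521, 316 and 1288, with DESeq2 1010, 794 and 2309, and with limma 378, 230 and 1340. Thinning gave 410 and 245 in the first and second. The first was 157 without the other sum of plate 2, and the second 203 and 213 without either promyelinating sum.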
